A study of Mus musculus with 2 samples.

Results

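The regulators described here are 10 genes that set the oxidative programme of skeletal muscle: the coactivators *Ppargc1a* and *Ppargc1b*, the nuclear receptors *Ppara*, *Ppard*, *Esrra*, *Esrrb*, *Esrrg* and *Rxrg*, the corepressor *Nrip1* and the mitochondrial transcription factor *Tfam*. Their probes were taken by name, as every probe of the array that carries the gene's current or older symbol, and that rule used no measured value. The genes themselves were chosen with earlier results of these data known. In all, 20 of the 41068 probes belonged to them, and 9 of the 10 genes were among the 13564 genes with signal. None of the 9 was called higher or lower in *Gde5* skKO muscle by the rule given below, where 1.58% of all genes were called higher and 1.74% lower. By their brightest probes, the largest mean differences were those of *Ppargc1a*, 1.35-fold above WT, and *Ppargc1b*, 1.26-fold above WT.

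The arrays compared gastrocnemius (GAS) muscle of male WT and *Gde5* skKO mice on a normal diet at 15 weeks of age. *Gde5* (*Gpcpd1*) encodes the enzyme that splits glycerophosphocholine into choline and glycerol 3-phosphate. The study made *Gde5* skKO mice on a C57BL/6 background by crossing mice with a floxed exon of *Gde5* to a Cre line driven by the human alpha-skeletal actin promoter (HSA-Cre;*Gde5* flox/flox). This promoter is active in skeletal muscle fibres, so the vessels, fat and connective tissue of the same muscle keep the gene. The labels call the controls wild-type, while the methods describe *Gde5* flox/flox littermates without Cre for other tests of the study. The series design names 5 mice of each genotype, without saying whether their RNA was pooled, whether both arrays held the same RNA, or whether mice were fasted or given glucose. The study describes array comparisons both after a glucose injection and in the fasted state, and the labels do not say which of them these arrays hold. Both genotypes lay on each of the 2 arrays in different dyes, and the dyes were swapped between the arrays.

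PGC-1alpha and PGC-1beta, the products of *Ppargc1a* and *Ppargc1b*, do not bind DNA themselves. They are recruited by nuclear receptors such as the PPARs, which sense fatty acids and work as partners of the RXRs, and by the oestrogen-related receptors (ERRs), orphan receptors that act without a classical hormone. Together these factors switch on genes of fatty acid oxidation, the citric acid cycle and the respiratory chain, and through the nuclear respiratory factors NRF-1 and GABP they raise *Tfam*, whose product packs and transcribes mitochondrial DNA. In muscle the programme is known for its response to endurance exercise, cold and fasting and for its high activity in slow, fatigue-resistant fibres.

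The start regions of 3 of these genes are shown because each holds a motif of a factor known to act in this network, whose own transcript was read on the arrays. The sequences come from the RefSeq promoter table of the mouse build GRCm38.p6, which held 15 start sites of 9 of the 10 genes, and each is printed 5′ to 3′ on the gene's strand up to the base before the transcription start. Capitals mark the motif found in each: in *Ppargc1a* the reverse complement of TGACG, the half-site of the cAMP response element bound by CREB, in *Tfam* CCGGAAG, an ETS site of the kind bound by GABP, and in *Ppara* a site of NRF-1, which reads alike on both strands.
*Ppargc1a*, chr5:51567726-51567814, minus strand: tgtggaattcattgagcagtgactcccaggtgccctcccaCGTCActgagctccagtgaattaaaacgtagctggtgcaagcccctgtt
*Tfam*, chr10:71238045-71238131, minus strand: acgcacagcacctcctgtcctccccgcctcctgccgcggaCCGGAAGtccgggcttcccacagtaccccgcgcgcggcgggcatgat
*Ppara*, chr15:85735705-85735775, plus strand: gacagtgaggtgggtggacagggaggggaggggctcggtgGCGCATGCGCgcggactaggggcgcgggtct

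Motifs were searched on both strands from 250 bases before each start to the end of the table's window. Of 32851 mouse windows, 20.8% held TGACG, 8.86% held CCGGAAG and 4.6% held the NRF-1 site. TGACG lay in 4 of the 15 windows, those of *Ppargc1a*, *Ppara*, *Ppard* and *Esrrb*. AAGGTCA, the extended half-site that ERRs bind, was in 4.72% of all windows and, among these genes, in 1 window of *Rxrg*. The direct repeat bound by a PPAR with an RXR was in 0.0396% of windows and in none of the 15. These matches are descriptions of letters and not of binding. The transcripts of the factors that read the sites had small mean log2 ratios, -0.06 for *Creb1*, -0.20 for *Gabpa* and 0.00 for *Nrf1*, and none of them was called. *Nrf1* was dim, at 47 and 60 in *Gde5* skKO and 54 and 53 in WT muscle, and its ratios of -0.19 and 0.19 had opposite directions.

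Each value below is a processed signal in arbitrary units or a log2 ratio of *Gde5* skKO over WT within an array. The brightest probe stood for a gene, and a gene was called when Feature Extraction, the software that reads the scans, gave a p-value under 0.05 on both arrays with the same direction. That p-value comes from an error model and covers the error of the spots on an array and not the spread between mice. For a probe averaged over several spots it was computed here, by a normal approximation, from the mean ratio and the mean error of the spots. That error was not reduced for the number of spots. Of the 13564 genes 450 were called, and 212 further genes passed the threshold on both arrays in opposite directions. The median log2 ratio of all genes was 0.01 on array 1 and 0.02 on array 2. *Gde5* itself is listed as Prei4 with 4 probes, of which 3 had log2 ratios between -2.59 and -3.29. The fourth probe, which lies apart from them, had -0.05 and -0.47. It stood for the gene because the mean log2 signal over both genotypes was highest there, although in WT muscle alone 2 of the other probes were brighter (13392 and 17839.5, and 13034 and 15748, against 6917 and 7610), so the rule did not call the deleted gene. Of 9 general markers of skeletal muscle, such as the creatine kinase *Ckm* and the fast myosin *Myh4*, all gave signal and none was called.

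The coactivators showed the largest mean ratios of the 10 genes at their brightest probes. *Ppargc1a* was read by a probe on the minus strand of chromosome 5 (51745937 to 51745996 in the array's mm8 annotation), with a signal of 3717 in *Gde5* skKO and 2499.6 in WT muscle on array 1 and of 3105 and 2521 on array 2. Both *Gde5* skKO signals lay above both WT signals, as they did for 21.0% of all genes. The log2 ratio was 0.57 on array 1 (95% interval of the error model 0.16 to 0.99) and 0.30 on array 2 (-0.10 to 0.70). The mean was 0.44 ± 0.19 (SD, n = 2 arrays), and array 2 did not pass the threshold. The second probe of the gene, placed a little further along the same strand, gave smaller ratios of 0.23 and 0.19.

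*Ppargc1b*, the relative of PGC-1alpha that is present in muscle at rest, had 3 probes. The brightest gave 3129 in *Gde5* skKO and 2379 in WT muscle on array 1 and 3041 and 2517 on array 2, again without overlap between the genotypes. Its log2 ratios were 0.40 (95% interval -0.01 to 0.80) and 0.27 (-0.13 to 0.68), neither past the threshold, with a mean of 0.33 ± 0.09 (SD, n = 2 arrays). The other probes differed between the arrays, the one with -0.02 and 0.31 and the other with 0.36 and 0.05. Within an array, the probes of *Ppargc1b* thus differed among themselves by about as much as the brightest probe differed between genotypes. Their means over both arrays lay closer together, at 0.33, 0.14 and 0.21. With limma's moderated test on normexp-corrected and loess-normalized ratios the Benjamini-Hochberg adjusted p-value over the 13564 genes was 0.251 for *Ppargc1a* and 0.397 for *Ppargc1b*, and it lay from 0.808 to 0.999 for the other 7 regulators with signal. The test took the 2 arrays as independent, which the labels do not say.

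**Figure D1:**
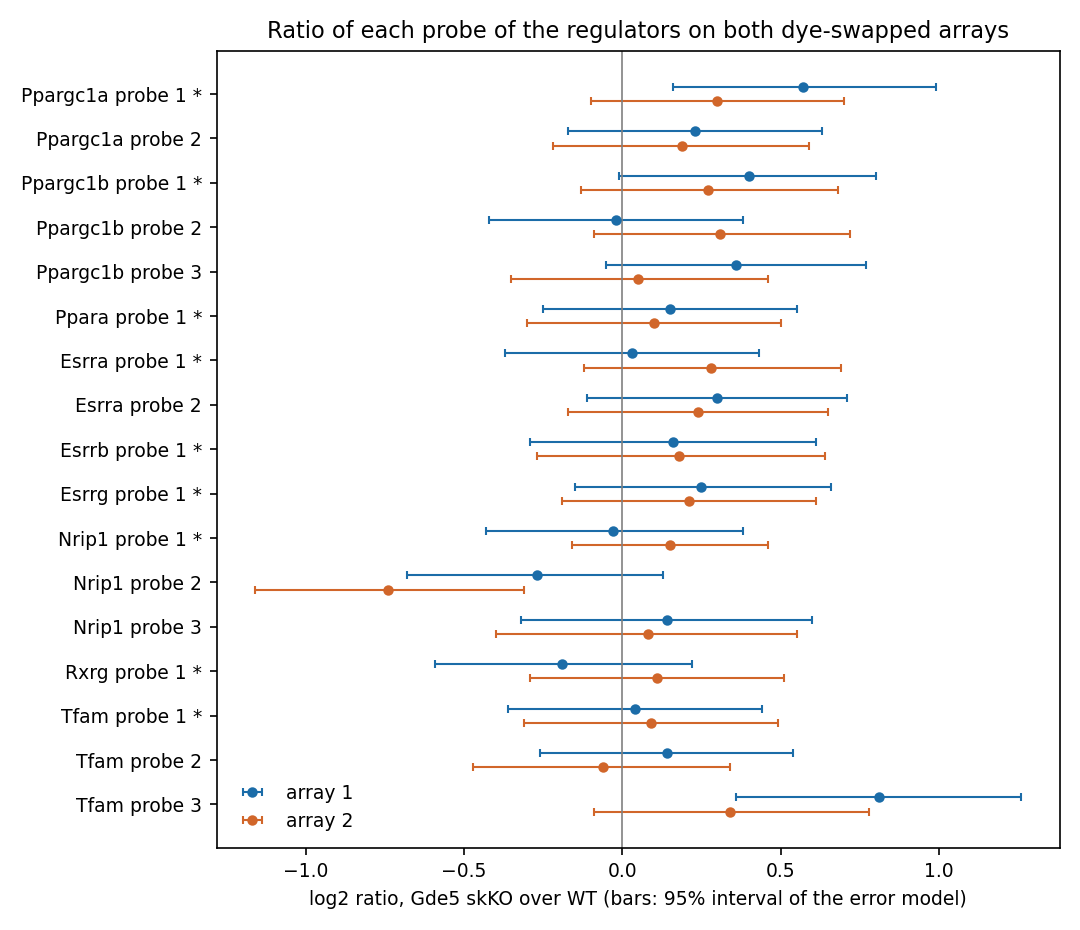
Log2 ratio of *Gde5* skKO over WT (horizontal axis) for the 17 probes with signal in both channels on both arrays, with array 1 in blue and array 2 in orange, bars for the 95% interval of the Feature Extraction error model, probes of a gene numbered by brightness within the gene and the brightest marked by an asterisk. On array 1 the bars of *Ppargc1a* probe 1 and of the dim *Tfam* probe lie clear of 0, on array 2 only those of the second *Nrip1* probe do, and no probe is clear of 0 on both.

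The PPARs and their partner RXR differed little where they could be read. *Ppara*, the PPAR best known for fatty acid oxidation, had 1 probe printed in 10 spots on each array (chromosome 15, 85629291 to 85629350, plus strand, mm8), which shows the error of the measurement itself. On array 1 the spots ranged from 1414 to 1829 in *Gde5* skKO muscle, with a median of 1637, and from 1187 to 1632 in WT muscle, with a median of 1528. On array 2 they ranged from 1362 to 1962 with a median of 1804 in *Gde5* skKO, and from 1205 to 1916 with a median of 1657 in WT. The ranges overlapped, but the ratio within each spot was steadier, at 0.15 ± 0.07 (SD over 10 spots of array 1) and 0.10 ± 0.07 (SD over 10 spots of array 2). It was above 0 in all 10 spots of array 1, from 0.02 to 0.25. On array 2 the ratio was likewise above 0 in all 10 spots, from 0.00 to 0.18 at 2 decimals. The spots of an array share its RNA and its dyes, and no single spot passed the threshold on either array. The mean log2 ratio of *Ppara* was 0.12, a 1.09-fold difference.

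*Ppard*, the PPAR with the broadest role in muscle fibres, had 1 probe, which was not well above background in either genotype on either array. Its signals of 13.6 and 36.6 in *Gde5* skKO and of 34.0 and 19.7 in WT muscle therefore give no ratio, and *Ppard* is the regulator that did not pass the filter. *Rxrg*, the RXR enriched in muscle, was read at 8749 and 10456 in *Gde5* skKO and at 9955 and 9711 in WT muscle. The log2 ratio was -0.19 on array 1 and 0.11 on array 2, so the direction turned between the arrays and the mean was -0.04 ± 0.21 (SD, n = 2 arrays).

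Of the ERRs, *Esrra* encodes ERRalpha, the main partner of PGC-1alpha at genes of the respiratory chain. Its brightest probe read 10302 and 10981 in *Gde5* skKO and 10076 and 9021.5 in WT muscle, with log2 ratios of 0.03 and 0.28. The genotypes were nearly equal on array 1 and apart on array 2, and the mean of 0.16 ± 0.18 (SD, n = 2 arrays) was smaller than that spread. With normexp and loess, and likewise with loess alone, the mean fell to 0.04. The second probe, several kilobases away on chromosome 19, gave 0.30 and 0.24. *Esrrg* encodes ERRgamma, which is known for driving oxidative metabolism and vessels in slow muscle. Its brightest probe read 1125 and 1154 in *Gde5* skKO against 943.2 and 997.4 in WT muscle, and its log2 ratios of 0.25 and 0.21 were close to each other, with a mean of 0.23 ± 0.03 (SD, n = 2 arrays). The 95% intervals, -0.15 to 0.66 on array 1 and -0.19 to 0.61 on array 2, both held 0. A dimmer *Esrrg* probe rose above background for *Gde5* skKO on array 1 alone. *Esrrb*, better known from stem cells and the inner ear than from muscle, read 224.5 and 252.9 in *Gde5* skKO and 200.9 and 223.0 in WT muscle, so that the lowest *Gde5* skKO signal barely exceeded the highest WT signal. Its log2 ratios were 0.16 and 0.18, and its mean fell from 0.17 to 0.05 with normexp background correction and loess. The other *Esrrb* probe was not well above background.

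**Figure D2:**
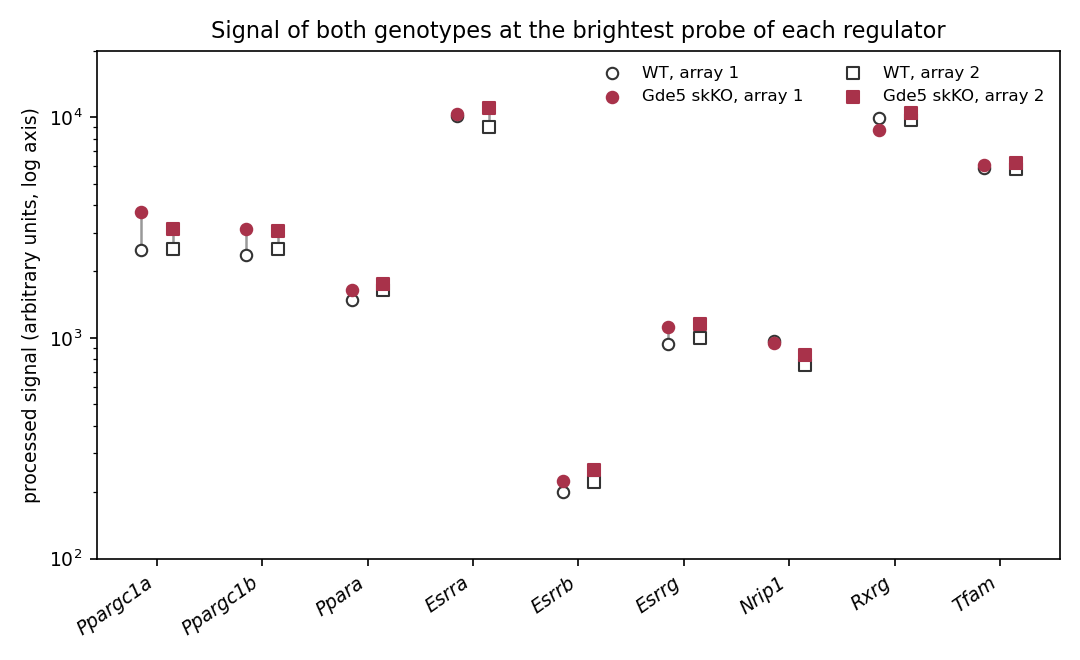
Processed signal in arbitrary units (vertical log axis) of the brightest probe of each of the 9 regulators with signal, with open symbols for WT, filled symbols for *Gde5* skKO, circles for array 1, squares for array 2 and grey lines joining the genotypes of an array. On array 1 *Ppargc1a* and *Ppargc1b* have the longest lines, and only *Rxrg* and *Nrip1* have the *Gde5* skKO symbol below the WT symbol on array 1. Signals of different probes are not comparable with each other.

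*Nrip1* encodes RIP140, a corepressor that holds back the targets of the PPARs and ERRs in muscle and fat, and its probes disagreed. The brightest, at 76173990 to 76174049 on the minus strand of chromosome 16 (mm8), read 945.4 and 834.8 in *Gde5* skKO and 963.4 and 752.9 in WT muscle, with log2 ratios of -0.03 and 0.15. The dimmest probe, on the same side, gave 0.14 and 0.08. The remaining probe, at 76234453 to 76234512 and 60.5 kb from the brightest, was designed on a separate cDNA and read 573.1 and 476.8 in *Gde5* skKO against 692.2 and 795.4 in WT muscle. Its log2 ratios were -0.27 (95% interval -0.68 to 0.13) and -0.74 (-1.16 to -0.31), the lowest mean of all the regulators' probes with signal at -0.51 ± 0.33 (SD, n = 2 arrays), and it passed the threshold on array 2 alone. Which *Nrip1* transcripts hold the 3 probes was not analysed here.

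*Tfam*, the last of the 10, was nearly equal between the genotypes at its brightest probe. It read 6089.5 and 6219 in *Gde5* skKO and 5913 and 5824 in WT muscle, with log2 ratios of 0.04 and 0.09 and a mean of 0.07 ± 0.04 (SD, n = 2 arrays). The second probe gave 0.14 and -0.06. A dim probe of *Tfam* with signals of 274.8 and 264.8 in *Gde5* skKO and 157.2 and 208.7 in WT muscle gave 0.81 (95% interval 0.36 to 1.26) and 0.34 (-0.09 to 0.78), past the threshold on array 1 alone. Its mean of 0.57 was the highest of the regulators' probes with signal but fell to 0.23 with normexp and loess, and the brighter *Tfam* probes did not share it.

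Over the 9 regulators with signal, all of which had signal in both channels on both arrays, 0 were called higher and 0 lower, against 1.58% and 1.74% of all genes. With limma's adjusted p-value 0 of the 9 passed as well. At an unadjusted limma p under 0.05 there were 2, *Ppargc1a* and *Ppargc1b*, both higher, where 575 of all 13564 genes were higher and 580 lower. At 17 probes with signal in both channels, the log2 ratio needed for a p under 0.05 on a single array lay between 0.31 and 0.47, with a median of 0.40, which is a 1.32-fold difference. Differences below about that size could not be called on these arrays. In direction, 7 of the 9 were above 0 on both arrays and 0 were below 0 on both, where 29.2% of all genes were above 0 on both and 25.3% below. Both *Gde5* skKO signals exceeded both WT signals in 6 of the 9 and fell short of them in 0, against 21.0% and 17.8% of all genes. The median of the 9 mean log2 ratios was 0.16, beside 0.01 for all genes. The regulators were chosen with results of these data known and their transcripts are not independent of each other, so no test was made over them as a group.

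**Figure D3:**
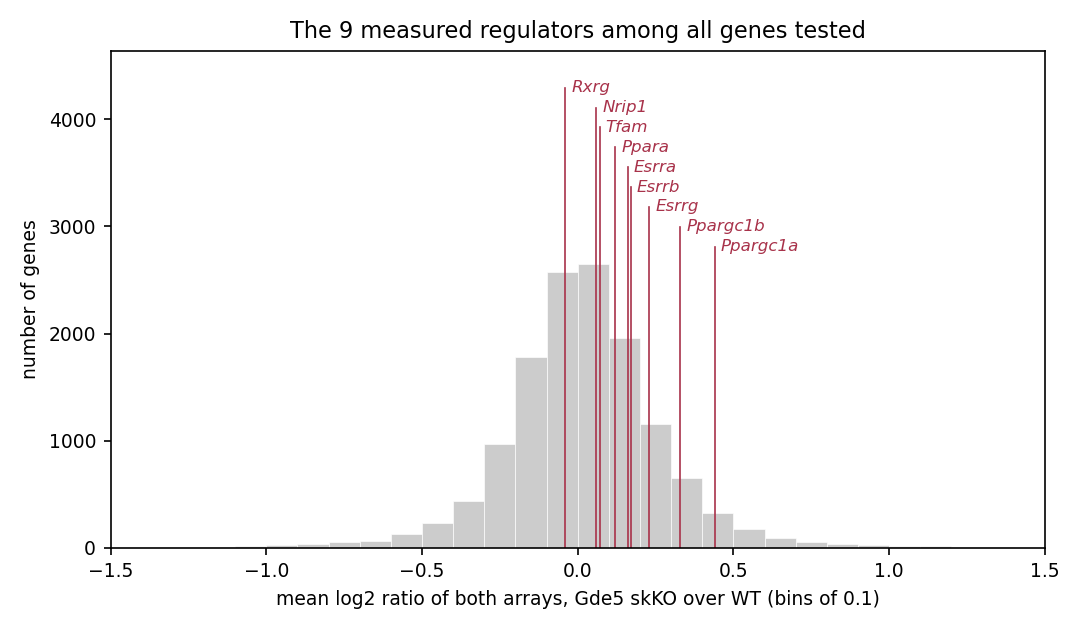
Mean log2 ratio of *Gde5* skKO over WT on both arrays (horizontal axis, bins of 0.1) for the 13564 genes with signal, as grey bars of the number of genes, with a red line at each of the 9 regulators. The regulators lie from -0.04 for *Rxrg* to 0.44 for *Ppargc1a*, inside the body of the distribution, whose 5th and 95th percentiles are -0.38 and 0.42 with *Ppargc1a* just beyond the upper one.

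The lists of the regulators' nearest kin had medians close to that of all genes. Of 15 relatives and coactivators of PGC-1, 14 had signal and 0 were called, with a median log2 ratio of 0.07. There 6 were above 0 on both arrays and 2 below, beside 29.2% and 25.3% of all genes. *Pprc1*, the third member of the PGC-1 family, had ratios of 0.00 and -0.02. *Sirt1* and *Sirt3*, deacetylases of the PGC-1 pathway, had ratios of -0.26 and 0.31 and of 0.56 and 0.24. *Perm1*, a muscle gene named for being induced by PGC-1 and ERR, had ratios of 0.25 and 0.63 at its brightest probe and was not called. Its other probe, singled out after its values were seen, read 1090.0 and 1313 in *Gde5* skKO against 702 and 817 in WT muscle. There the ratios were 0.63 and 0.68, and this *Perm1* probe passed the threshold on both arrays and the brighter probe on array 2 alone.

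Among 10 corepressors, 9 had signal and 1 was called higher, beside 1.58% of all genes, with a list median of 0.05. The called gene was *Mybbp1a*, a nucleolar protein known to bind and repress PGC-1alpha. It had signals of 379 and 390.0 in *Gde5* skKO and 281 and 253 in WT muscle and log2 ratios of 0.43 and 0.62. Its mean of 0.53 fell to 0.24 with normexp and loess. *Ncor1*, the corepressor that opposes PGC-1alpha at PPAR and ERR targets, had 0.08 and 0.12.

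Of 18 nuclear receptors that work beside these regulators, 15 had signal and 0 were called, with a median of -0.05. On both arrays 3 were above 0 and 9 below, beside 29.2% and 25.3% of all genes. *Rxra*, the widely expressed partner of the PPARs, had ratios of -0.34 and -0.45 at its brightest probe and of -0.45 and 0.68 at a dim one. *Nr4a1*, an early response receptor of exercised muscle, had -0.22 and -0.50. *Pparg*, the PPAR of fat cells, was read in 10 spots on each array and had -0.01 and -0.02.

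Of 19 genes of mitochondrial DNA upkeep and transcription that work with *Tfam*, 17 had signal, 0 were called and the median was 0.04. *Tfb2m*, the transcription factor that opens mitochondrial promoters with *Tfam*, had -0.06 and -0.36, and *Polrmt*, the mitochondrial RNA polymerase, had 0.07 and 0.02. Upstream, 22 of 23 genes that signal to PGC-1alpha had signal and 0 were called, with a median of -0.03 and single genes from -0.44 to 0.29. These hold the subunits of AMPK, the p38 kinase *Mapk14* and the *Mef2* factors.

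The lists of known targets had higher medians than the lists of kin. Of 28 PPAR targets, 25 had signal, and 18 were above 0 on both arrays and 1 below, beside 29.2% and 25.3% of all genes. Called higher were 2 and lower 0, beside 1.58% and 1.74% of all genes. The median was 0.18, with 0.16 on array 1 and 0.30 on array 2. *Pdk4*, the kinase that shuts pyruvate out of the citric acid cycle, read 35431 and 30511 in *Gde5* skKO against 23834 and 17214 in WT muscle. It rose 1.62-fold in the mean, with log2 ratios of 0.57 and 0.83 and an SD of 0.18 over the 2 arrays. *Angptl4*, a secreted inhibitor of lipoprotein lipase, read 3479 and 3265 in *Gde5* skKO against 1681 and 2125 in WT muscle. It rose 1.78-fold in the mean, with ratios of 1.05 and 0.62 and an SD of 0.30 over the 2 arrays. For both genes the 2 *Gde5* skKO signals lay above the 2 WT signals, as they did for 21.0% of all genes. *Pdk4* and *Angptl4* also respond to fasting, and which of the study's conditions, after glucose or fasted, these arrays hold is not given in the labels.

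Of 38 targets of the ERRs and PGC-1, 37 had signal, 0 were called and the median was 0.12. Above 0 on both arrays were 19 and below 0 were 2, beside 29.2% and 25.3% of all genes. This list holds genes of the citric acid cycle and the respiratory chain, and its single genes ranged from -0.09 to 0.44. *Plin2* of the first list and *Maob* of the second were matched to no probe by name and so were not analysed here. The medians of the 2 target lists were 0.14 and 0.11 with normexp and loess.

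**Figure D4:**
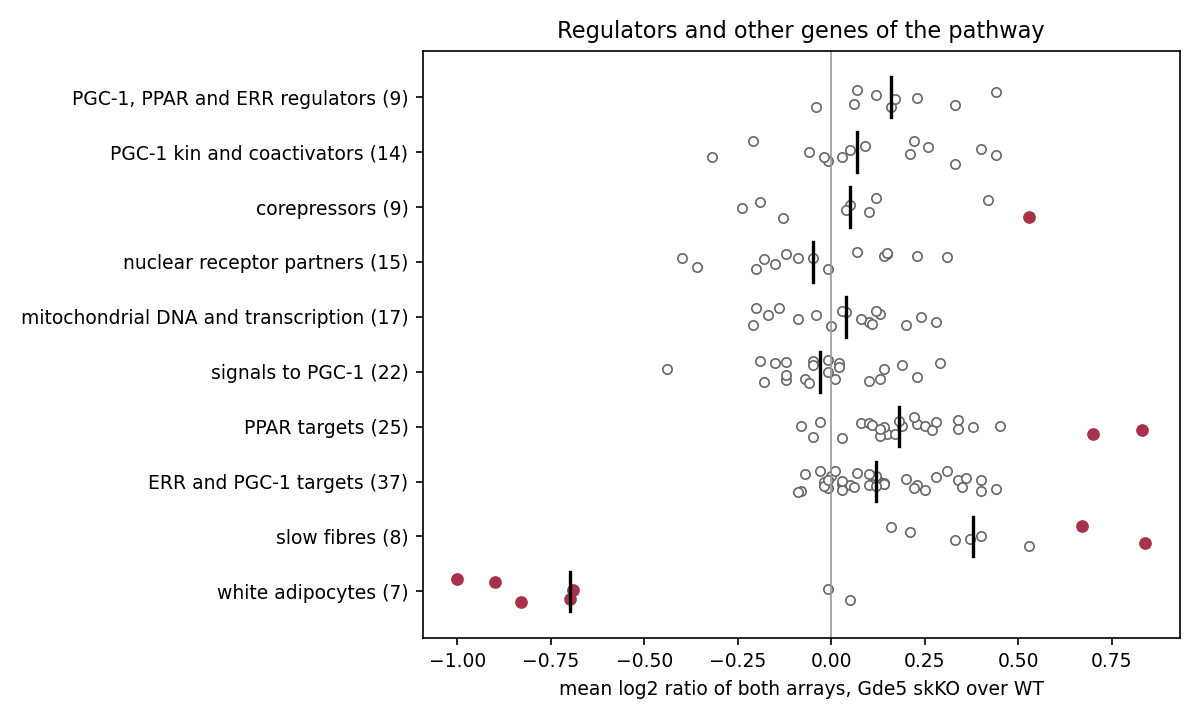
Mean log2 ratio of *Gde5* skKO over WT on both arrays (horizontal axis) for each gene with signal in the regulators and in 9 lists of genes, with the number of genes in parentheses, filled red points for called genes and black bars for medians; points are spread vertically for sight only. The regulators have a median of 0.16 with no called gene, the slow fibre genes lie to the right of 0 and 5 white adipocyte genes lie at -0.69 or below.

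The PGC-1 programme is known to be most active in slow fibres. Of 9 genes of slow fibres, *Myh7b* was matched to no probe by name and the other 8 had signal. Of these, 7 were above 0 on both arrays and 2 were called higher, with a median of 0.38 and with none called lower. Among all genes 29.2% were above 0 on both arrays and 1.58% were called higher. *Myl2*, the slow regulatory light chain, had a mean log2 ratio of 0.84, and the slow troponin *Tnni1* had 0.67. The slow myosin *Myh7* had ratios of 0.30 and 0.36 and *Atp2a2* had 0.44 and -0.12, and neither was called. By qPCR the study found fibre-type transcripts comparable between *Gde5* skKO and WT mice. The fibre-type primers it lists are those of the myosins *Myh7*, *Myh2*, *Myh1* and *Myh4*, and *Myl2* and *Tnni1* are not among them. The summed signal of the 8 was 143000 and 140000 in *Gde5* skKO and 100000 and 103000 in WT muscle. More slow fibres in a sample and more transcript in each fibre cannot be told apart in whole muscle, and their part in the values of the regulators was not tested.

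Markers of white adipocytes went the other way. Of 8, 7 had signal and 5 were called lower, beside 1.74% of all genes. They were *Adipoq* at -1.0, *Cfd* at -0.90, *Retn* at -0.83, *Cidec* at -0.70 and *Plin1* at -0.69. *Lep* was not well above background, and the list median moved from -0.70 to -0.34 with normexp and loess. The summed signal of the 7 was 43800 and 41700 in *Gde5* skKO and 44300 and 45700 in WT muscle, most of it from *Fabp4*, which capillaries also express. *Angptl4*, *Pparg*, *Ppargc1b* and *Nrip1* are also transcribed in fat, and the part of fat in their values was not tested. Of 4 brown adipocyte genes 2 had signal. *Cidea* was called higher at 0.77, beside 1.58% of all genes, while *Prdm16* had ratios of 0.26 and -0.17 and was not called. *Ucp1* and *Elovl3* were not well above background.

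Of the remaining markers, 5 of endothelium had 0 calls and a median of 0.22, which was 0.07 with normexp and loess. The 3 macrophage genes with signal and the 6 of fibroblasts and tendon had 0 calls, with medians of -0.11 and -0.09. Of 6 liver genes 5 were matched to a probe and 2 had signal. *Apoh* was called higher at 0.81, which fell to 0.34 with normexp and loess. The other, *Alb*, gave -1.03 and -0.28 and passed only on array 1.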

How the data were processed

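Ratios of *Gde5* skKO over WT were read from 2 dye-swapped Agilent whole mouse genome arrays. The authors read the scans with Feature Extraction, version 9.5.3.1 per the file headers, which removes background, detrends and balances the dyes. For every spot the deposited files hold the log10 of Cy5 over Cy3, its error score and its p-value. Channel intensity, of the spot and of its surroundings, is deposited too. The authors' series table is the same log10 value, rounded and not turned for the dye swap. Background subtraction widens the ratios of dim probes.

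Here log10 ratios were converted to log2 and turned by the dyes in the labels. Spots with outlier marks (195 on array 1 and 221 on array 2 of 43379) and 12 spots of array 1 beside debris, with local background over 1.2 times the signal, were left out, the latter a choice made after values were seen. Spots were averaged per probe, probes were named through the RefSeq table (24375 by accession, 6303 by symbol, 2418 by synonym and 8078 by the array's own name), and a gene was kept where 1 channel or both were well above background on each array. The well-above-background share of spots ran from 44.6% to 53.2% over the 4 channels. The number of arrays limits the precision. Both arrays lay on 1 slide and came from 1 scan. The groups are the 2 genotypes, no test was made across mice, and the arrays' replicate numbers name arrays only.

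The regulators, the gene lists and the rule for named genes were chosen with earlier results of these data known. Named were all 10 regulators with each probe, up to 4 called genes per list and direction, genes describing the kin lists, and *Gpcpd1*. For white adipocytes all 5 called genes were named, beyond that limit. Other named genes, such as *Creb1* and *Fabp4*, were chosen after their values were seen. Alternatives used limma 3.58.1 in R 4.3.3 (normexp with an offset of 50, loess, the moderated test), the methods' t-test of channel values, the series table, other filters, thresholds and probes, and each array alone. The t-test, which the methods name for comparisons of groups in general, ignored that both genotypes of an array are paired. Like limma's moderated test, it also took the arrays as independent, which the labels do not say. Other steps used scipy 1.17.1, pandas 2.3.3, numpy 2.4.6 and, for figures, matplotlib 3.10.9 under Python 3.11.15, and the call rule was tested on simulated data.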

Additional observations from a re-analysis of the deposited data

How the results depend on the processing

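Over 16 alternative settings no regulator was called lower, and in 12 none was called higher. Several of these 12 could not have called a regulator that the main setting did not. The normexp, loess-only and series-table settings changed the ratios but kept the p-values of the main setting. The stricter threshold, the adjustment within each array and the filter on both channels can only remove calls. These settings thus give no separate support for the absence of calls. With array 1 alone *Ppargc1a* was called, and with array 2 alone none was, so the count over single arrays ran from 0 to 1. Without adjustment 2 regulators were called by limma's moderated test (*Ppargc1a* and *Ppargc1b*), by the methods' t-test (*Ppargc1b* and *Esrrg*) and by the error-model p of the mean of both arrays (*Ppargc1a* and *Ppargc1b*), the last chosen after seeing the data. After Benjamini-Hochberg adjustment none was. Of all 13564 genes, 450 were called in the main setting. The count ran from 1644 to 1879 with a single array, and was 234 at p under 0.01, 126 with adjustment within each array, 1155 by limma and 107 after adjustment, 1188 by the methods' t-test and 0 after adjustment, and 1936 by the error model of the mean and 623 after adjustment.

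Among the regulators' ratios, *Rxrg* ran from -0.19 to 0.11 and *Nrip1* from -0.11 to 0.15 over 9 settings. The other 7 stayed above 0, *Esrra* from 0.03 to 0.28, *Ppargc1a* from 0.30 to 0.57 and *Ppargc1b* from 0.23 to 0.40. The 9 settings are not separate checks. The series table, the filter settings and the t-test's channel values gave the main means again, and the single arrays are the parts of those means. The slide was not run as a block, since both arrays lie on it. Depth in the sense of signal limits *Ppard*, which gave no ratio.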
